A study of Homo sapiens with 24 samples.

Results

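The genes described here are 10 genes of the integrated stress response that acts through the transcription factor ATF4, out of 14493 genes in the count table: ATF4, DDIT3, ATF3, TRIB3, CHAC1, ASNS, SESN2, DDIT4, GDF15 and NIBAN1. They were chosen by name. GDF15 and NIBAN1 were selected on measured values of these libraries, since they were among the genes that rose most in ND-646 and TVB-3166 cells against untreated cells at day 0. The other 8 are textbook members of the pathway, although they too were chosen with earlier results of these data known. Their counts against the background are to be read with that limit. Against day 0, GDF15 and NIBAN1 ranked 2 and 3 by log2 fold change in both the ND-646 and the TVB-3166 cells, and the next of the 10 genes, DDIT3, ranked 42 of 13604 and 52 of 13686. For these 2 genes, changes that involve ND-646, TVB-3166 or day-0 libraries are therefore given as a description with no test.

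RNA-seq was done on SKBR3 cells, an established HER2-amplified breast cancer cell line that carries a mutant p53, in 8 groups of 3 libraries. Therapy-induced senescence (TIS) was induced with the acetyl-CoA carboxylase inhibitor ND-646 at 250 nmol/L, the fatty acid synthase inhibitor TVB-3166 at 250 nmol/L, the DNA-damaging agents bleomycin at 10 μmol/L and doxorubicin at 10 nmol/L, the Aurora A kinase inhibitor alisertib at 500 nmol/L or the CDK4/6 inhibitor palbociclib (written Palboclib in the labels) at 1 μmol/L. Cells of the 6 drug groups were refed at day 3 and collected at day 7, and untreated cells were collected at day 0, as proliferative cells, and at day 7. All groups are 1 cell line, and no source says of these libraries that the replicates were separate cultures, so p-values measure the spread between these libraries, which may be technical.

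The integrated stress response begins when one of the eIF2α kinases (HRI, PKR, PERK or GCN2) phosphorylates the translation factor eIF2α, which lowers general protein synthesis and raises translation of the ATF4 mRNA. ATF4, alone or with partners such as CHOP (encoded by DDIT3) and C/EBP proteins, then switches on genes for amino acid supply, redox balance, mTORC1 restraint and, when stress lasts, cell death. Because ATF4 is controlled largely by translation, its mRNA can change less than those of its targets. GDF15, a secreted cytokine of the TGF-β superfamily, is a known target of ATF4 and CHOP, and also of p53.

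ATF4 acts through C/EBP-ATF response elements whose core is TGATGNAA. Promoters of the 10 genes that hold this core are shown, picked by a match to these letters alone. RefSeq promoter windows (GRCh38.p14, 250 bases before to 50 after a gene start) were found for all 10 genes, in 16 windows, and were searched on both strands. The core was in 3 of the 16 windows, one each of ATF3, CHAC1 and ASNS, and in 1270 of 35116 windows of all genes (3.62%). The cyclic AMP response element TGACGTCA, counted separately, was in none of the 16 windows and in 1.85% of all. The 250 bases before the start are printed 5′ to 3′ on the strand of the gene, with the core in capitals. It begins 191 bases before the start in ATF3 (chr1:212565157-212565406, plus strand), 68 bases before it in ASNS (chr7:97872409-97872658, minus strand) and 209 bases before it in CHAC1 (chr15:40953221-40953470, plus strand), where it reads on the opposite strand. A match describes these letters and is not evidence of binding.
ATF3: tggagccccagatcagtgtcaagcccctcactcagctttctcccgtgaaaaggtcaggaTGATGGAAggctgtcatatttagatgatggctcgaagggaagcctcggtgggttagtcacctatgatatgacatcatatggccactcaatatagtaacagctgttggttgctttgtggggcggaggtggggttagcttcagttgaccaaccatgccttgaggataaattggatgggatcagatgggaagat
ASNS: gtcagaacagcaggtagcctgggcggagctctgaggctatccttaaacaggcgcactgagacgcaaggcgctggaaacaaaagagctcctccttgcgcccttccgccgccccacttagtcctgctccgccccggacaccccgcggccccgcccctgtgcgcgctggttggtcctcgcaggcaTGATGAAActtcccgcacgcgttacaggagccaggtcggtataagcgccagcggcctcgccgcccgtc
CHAC1: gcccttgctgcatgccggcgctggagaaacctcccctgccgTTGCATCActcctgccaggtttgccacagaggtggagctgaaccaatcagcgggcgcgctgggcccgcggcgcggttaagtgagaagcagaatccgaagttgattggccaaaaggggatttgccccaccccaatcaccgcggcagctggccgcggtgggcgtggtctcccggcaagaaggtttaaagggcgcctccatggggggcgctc

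Total counts ranged from 29405121 to 44316330 per library, and across the 10 genes counts ran from 17 (NIBAN1) to 25933 (ATF4). Levels are given as CPM, read counts scaled to a common library size with TMM factors, with SD over 3 libraries. ND-646 replicate 1 stood apart, with the lowest TMM factor (0.791). The next lowest was that of untreated day-0 replicate 1 (0.895), and the other libraries had 0.92 or more. The counts of calls given here that moved by over 1.5 times without ND-646 replicate 1 are given both ways. For the gene lists and for each other drug alone, the fits without it were added after the data were seen. Of the SKBR3 markers, ERBB2 (HER2) was at 5121 to 8827 CPM in the 24 libraries. Against untreated day-7 cells, none of 6 such markers rose and 1 fell in ND-646 cells, or 3 without ND-646 replicate 1. In TVB-3166 cells 2 rose and 2 fell, and in bleomycin cells none rose and 3 fell. None rose in doxorubicin, alisertib or palbociclib cells, where 1, 2 and 0 fell. The shares of all genes are given below with the members. Of the reference genes PPIA, GAPDH and GUSB none passed the test in ND-646 cells (2 were lower without ND-646 replicate 1), 2 fell in TVB-3166, bleomycin, doxorubicin and alisertib cells, and 3 fell in palbociclib cells. Of 11 markers of blood, endothelial and stromal cells 4 were measured, and the other 7 were not analysed here. The summed level of the 4 (CD68, VWF, COL1A1 and ACTA2) was 18.4 to 19.97 CPM in untreated day-7 cells, 54.6 to 67.0 in ND-646, 37.2 to 42.8 in TVB-3166 and 45.6 to 74.0 in bleomycin cells. Without CD68, a lysosomal protein, the ranges were 11.6 to 16.3, 11.1 to 15.4, 11.1 to 12.5 and 11.3 to 18.5 CPM. Doxorubicin cells held 26.96 to 30.5 CPM, or 17.1 to 21.3 without CD68. The sums hide changes of single markers. Of the 4, 3 rose and 1 fell in bleomycin and in doxorubicin cells. In TVB-3166 cells 2 rose and none fell, in alisertib cells 1 and 0, and in palbociclib cells 2 and 1. In ND-646 cells 2 of 3 tested rose and none fell. Without ND-646 replicate 1, 2 of 4 rose and 1 fell. The part of these markers in the results was not tested. In bulk libraries, fewer cells with a transcript and less of it per cell cannot be told apart.

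Each TIS group was compared with untreated cells of the same day, the question being which stress genes differ once 7 days of culture are matched. The untreated day-7 libraries are not labelled as refed, so drug and refeeding at day 3 cannot be told apart here. All 6 comparisons share the 3 untreated day-7 libraries. A gene is said to rise or fall where edgeR's quasi-likelihood test gave a Benjamini-Hochberg adjusted p under 0.05 over all genes tested. All 8 of the tested members rose in ND-646 cells, where 17.2% of 13704 genes rose and 17.1% fell. All 8 also rose in TVB-3166 cells, where 25.4% of genes rose and 26.1% fell. The median log2 fold change of the 8 was 1.51 and 1.33, against 0.02 and 0.00 over all genes. Without ND-646 replicate 1 all 8 rose in ND-646 cells with a median of 1.51, where 26.7% of all genes rose and 28.3% fell.

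In the other TIS groups all 10 genes were tested. In bleomycin cells 7 rose and none fell (22.4% of all genes rose, 23.2% fell), and DESeq2 gave the same count of 7. In doxorubicin cells 4 rose and 1 fell (21.9% and 21.5% of all genes). In alisertib cells 4 rose and none fell (9.55% and 9.49% of all genes, 4 by DESeq2). In palbociclib cells 4 rose and none fell (22% and 22.9% of all genes, 4 by DESeq2). Shares of the members in the doxorubicin and palbociclib groups were closer to the background than in the ND-646, TVB-3166 and bleomycin groups, although the sets differ. The counts of the 4 groups here include GDF15 and NIBAN1, which those of ND-646 and TVB-3166 leave out. GDF15 is among the genes that rose in all 4 groups, and NIBAN1 in bleomycin and doxorubicin cells. The median log2 fold change of the 8 textbook members was 0.89 in bleomycin, 0.19 in doxorubicin, 0.22 in alisertib and 0.34 in palbociclib cells. The doxorubicin count rested on the controls, with 8 genes called without untreated day-7 replicate 2, and the alisertib count was 2 without untreated day-7 replicate 3 or without alisertib replicate 2.

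Of the transcription factors, ATF4 (gene ID 468, chr22:39915700-39918688, plus strand, GRCh37) was measured at 324, 403 and 350 CPM in untreated day-7 cells, at 1102, 607 and 623 in ND-646 cells and at 633, 543 and 552 in TVB-3166 cells. Both drug groups lay above all untreated libraries. It stood 2.16-fold higher in ND-646 cells (log2 fold change 1.11 ± 0.24 SE, adjusted p = 0.00893) and 1.61-fold higher in TVB-3166 cells (0.69 ± 0.10, adjusted p = 0.000205). Without ND-646 replicate 1, the highest library by a wide margin, the log2 fold change was 0.77 (adjusted p = 0.000113). The means of the other 4 TIS groups ran from 310 (doxorubicin, SD 19.8) to 382 CPM (bleomycin, SD 48.7), and none of these groups passed the test for ATF4, with log2 fold changes of -0.19 to 0.11. Bleomycin, alisertib and palbociclib libraries overlapped the untreated day-7 libraries, and the 3 doxorubicin libraries lay below them. At day 0 the libraries held 197, 257 and 235 CPM, below every other group.

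DDIT3 (gene ID 1649, chr12:57910371-57915520, minus strand), which encodes the pro-apoptotic factor CHOP, rose in all 6 TIS groups. Untreated day-7 libraries held 7.45, 12.0 and 8.17 CPM, against 61.1, 49.5 and 45.6 in ND-646, 30.6, 48.2 and 39.2 in TVB-3166 and 23.2, 43.3 and 24.9 in bleomycin cells. None of these 9 libraries overlapped the controls. The rise was 5.65-fold in ND-646 cells (log2 fold change 2.50 ± 0.22, adjusted p = 0.000148), 4.30-fold in TVB-3166 cells (2.104 ± 0.198, adjusted p = 9.54e-06) and 3.35-fold in bleomycin cells (1.74 ± 0.27, adjusted p = 0.00103). It was smaller in doxorubicin cells, at 16.9, 18.3 and 14.0 CPM (0.86 ± 0.18, adjusted p = 0.00214). In alisertib cells, at 11.4, 21.2 and 13.8 CPM, and in palbociclib cells, at 10.7, 18.3 and 12.4 CPM, the libraries overlapped the controls, and the log2 fold changes of 0.76 (adjusted p = 0.0415) and 0.59 (adjusted p = 0.0466) were near the threshold. Each of those 2 calls was lost without untreated day-7 replicate 1 or 3 or without replicate 2 or 3 of the drug group, with values down to 0.47 (adjusted p up to 0.167) and 0.35 (adjusted p up to 0.186).

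ATF3 (gene ID 467, chr1:212738676-212794119, plus strand), a stress-induced factor of the same bZIP family, differed from the other members in its order. It was highest in bleomycin cells, at 70.8, 76.5 and 76.9 CPM, and palbociclib cells, at 84.0, 73.1 and 65.6 CPM, whose libraries overlapped. Doxorubicin cells followed at 61.3, 54.4 and 59.2 CPM, TVB-3166 at 44.7, 57.9 and 49.9, ND-646 at 46.0, 53.9 and 47.1, and alisertib at 34.6, 36.6 and 33.9. Every TIS library was above the untreated day-7 libraries, at 23.8, 22.5 and 22.6 CPM. It rose in all 6 groups, with log2 fold changes of 1.72 ± 0.09 in bleomycin (adjusted p = 8.69e-06), 1.71 ± 0.10 in palbociclib (adjusted p = 1.22e-06), 1.37 ± 0.09 in doxorubicin (adjusted p = 5.16e-07), 1.16 ± 0.10 in TVB-3166 (adjusted p = 7.35e-06), 1.09 ± 0.13 in ND-646 (adjusted p = 0.00055) and 0.62 ± 0.08 in alisertib cells (adjusted p = 0.00106). No library left out removed any of these 6 calls.

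TRIB3 (gene ID 57761, chr20:343479-378203, plus strand) encodes a pseudokinase that is induced by ATF4 and CHOP and restrains ATF4 in return. Its libraries held 284, 302 and 249.03 CPM in untreated day-7 cells, 882, 564 and 558 in ND-646 cells and 614, 538 and 536 in TVB-3166 cells. Both lipogenesis inhibitor groups lay above the controls, by 2.40-fold (log2 fold change 1.26 ± 0.20, adjusted p = 0.00225, and 1.01 without ND-646 replicate 1) and 2.03-fold (1.02 ± 0.10, adjusted p = 9.1e-06). Bleomycin cells rose less, at 389, 460.1 and 309 CPM (0.49 ± 0.15, adjusted p = 0.022). So did alisertib cells, at 370.4, 371 and 312 CPM (0.35 ± 0.10, adjusted p = 0.0275). The bleomycin call was lost without untreated day-7 replicate 1 or 3 or bleomycin replicate 2 (0.34 at the lowest, adjusted p up to 0.0937). The alisertib call was lost without untreated day-7 replicate 3 or alisertib replicate 1 or 2 (0.28 at the lowest, adjusted p up to 0.121). Doxorubicin (0.06) and palbociclib cells (-0.23) did not pass the test.

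CHAC1 (gene ID 79094, chr15:41245160-41248710, plus strand) encodes a γ-glutamylcyclotransferase that breaks down glutathione. It was low in untreated day-7 cells, at 6.21, 7.99 and 4.37 CPM. ND-646 libraries held 27.5, 33.1 and 30.1 CPM, TVB-3166 libraries 15.9, 40.0 and 20.3, and bleomycin libraries 17.2, 29.4 and 16.8. All 9 were above the controls. The rise was 4.88-fold in ND-646 (log2 fold change 2.29 ± 0.23, adjusted p = 0.000253), 4.12-fold in TVB-3166 (2.04 ± 0.31, adjusted p = 0.000286) and 3.46-fold in bleomycin cells (1.79 ± 0.28, adjusted p = 0.00101). In doxorubicin cells, at 9.96, 11.2 and 6.22 CPM, it did not pass edgeR's test (0.59 ± 0.24, adjusted p = 0.0639) but did by DESeq2 (adjusted p = 0.0298). Alisertib (0.21) and palbociclib cells (0.66) overlapped the controls, and palbociclib replicate 2, at 16.3 CPM, was far above the group's other libraries, at 7.03 and 5.91.

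ASNS (gene ID 440, chr7:97480989-97501854, minus strand), asparagine synthetase, was lower by the test in doxorubicin cells and higher in both lipogenesis inhibitor groups. Its levels were 178, 295 and 198 CPM in untreated day-7 cells, 570.4, 367 and 347 in ND-646, 324, 315 and 286 in TVB-3166 and 266, 363 and 255 in bleomycin cells. In doxorubicin cells they were 140, 169 and 130 CPM, below all 3 control libraries. It rose 1.91-fold in ND-646 cells (log2 fold change 0.93 ± 0.25, adjusted p = 0.0221) and 1.38-fold in TVB-3166 cells (0.47 ± 0.16, adjusted p = 0.0263), where the libraries overlapped the controls, and it fell in doxorubicin cells (-0.59 ± 0.16, adjusted p = 0.0114). The ND-646 call was lost without untreated day-7 replicate 1 or 3 (adjusted p up to 0.0955), and the TVB-3166 call without untreated day-7 replicate 1 or 3 or TVB-3166 replicate 1 or 2 (adjusted p up to 0.109). Without ND-646 replicate 1 the ND-646 value was 0.67 (adjusted p = 0.00782). The doxorubicin call held without any of the 6 libraries. Against day 0, with no test, the doxorubicin value was -0.18 and the libraries overlapped. Bleomycin (0.41), alisertib (-0.37) and palbociclib cells (-0.42) did not pass the test. Of the 6 fits with 1 library left out, 1 called ASNS higher in bleomycin cells, that without untreated day-7 replicate 2 (0.66, adjusted p = 0.01475). In palbociclib cells 2 of 6 called it lower, and in alisertib cells 0 did.

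Both members that restrain the growth kinase complex mTORC1 rose with the lipogenesis inhibitors. SESN2 (gene ID 83667, chr1:28586029-28609002, plus strand), the leucine sensor sestrin 2, was at 14.5, 18.6 and 13.3 CPM in untreated day-7, 41.6, 55.4 and 59.7 in ND-646, 27.9, 56.6 and 46.0 in TVB-3166 and 20.7, 35.4 and 25.2 in bleomycin cells. These 3 TIS groups did not overlap the controls, and SESN2 rose 3.37-fold (log2 fold change 1.75 ± 0.20, adjusted p = 0.000408), 2.82-fold (1.498 ± 0.219, adjusted p = 0.000198) and 1.77-fold (0.83 ± 0.21, adjusted p = 0.0106). In doxorubicin, alisertib and palbociclib cells its log2 fold changes of 0.08 to 0.30 did not pass the test.

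DDIT4 (gene ID 54541, chr10:74033678-74035794, plus strand), also called REDD1, was higher in palbociclib cells as well. Untreated day-7 libraries held 99.1, 239 and 124 CPM, against 566, 644 and 664 in ND-646, 341, 595 and 463 in TVB-3166 and 425, 590.1 and 387 in palbociclib cells. None of these 9 overlapped the controls. The log2 fold changes were 2.02 ± 0.31 (adjusted p = 0.00183), 1.61 ± 0.29 (adjusted p = 0.000771) and 1.61 ± 0.27 (adjusted p = 0.000724), and no library left out removed them. Bleomycin libraries were spread from 160 to 475 CPM and did not pass (0.96 ± 0.41, adjusted p = 0.0802), although the fit of all 24 libraries called it (0.94, adjusted p = 0.047). So did 2 of the 6 fits with 1 library left out, among them that without untreated day-7 replicate 2 (1.42, adjusted p = 0.0214). Doxorubicin (0.07) and alisertib cells (0.09) overlapped the controls.

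GDF15 (gene ID 9518, chr19:18485541-18499986, plus strand) was the member with the widest range, from a mean of 1.57 CPM at day 0 to 116 CPM in ND-646 cells. Its libraries held 1.09, 1.73 and 1.89 CPM at day 0 and 1.86, 5.50 and 2.14 CPM in untreated cells at day 7. ND-646 libraries held 192, 69.0 and 86.4 CPM, TVB-3166 libraries 42.4, 37.6 and 43.3, and bleomycin libraries 36.3, 62.3 and 31.2. Every TIS library was above every untreated one. Doxorubicin libraries held 26.5, 21.7 and 18.7 CPM, alisertib libraries 13.0, 19.1 and 13.6, and palbociclib libraries 11.6, 21.6 and 12.4. In order of means, bleomycin and TVB-3166 overlapped, as did doxorubicin, alisertib and palbociclib. In the 4 groups where it could be tested GDF15 rose in each, by 14.0-fold in bleomycin (log2 fold change 3.80 ± 0.42, adjusted p = 0.000231), 7.26-fold in doxorubicin (2.86 ± 0.31, adjusted p = 2.67e-05), 4.91-fold in alisertib (2.29 ± 0.34, adjusted p = 0.00185) and 4.87-fold in palbociclib cells (2.28 ± 0.37, adjusted p = 0.000556). All 4 calls held without any 1 library, with log2 fold changes of 1.96 to 4.45. As a description with no test, the log2 fold change was 5.19 ± 0.56 in ND-646 cells, 4.63 without ND-646 replicate 1, and 3.72 ± 0.31 in TVB-3166 cells.

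NIBAN1 (gene ID 116496, chr1:184759858-184943640, minus strand), a stress-inducible protein linked to translational control, followed the same order as GDF15 at the top of the range. It was at 47.9, 79.0 and 76.5 CPM in ND-646, 21.5, 33.7 and 28.4 in TVB-3166 and 20.1, 44.1 and 26.2 in bleomycin cells. Doxorubicin libraries held 12.4, 15.4 and 9.79 CPM, alisertib libraries 3.61, 10.5 and 4.48, and palbociclib libraries 3.47, 17.3 and 6.90. The controls were widely spread, with 0.377, 9.04 and 1.75 CPM at day 7 and 0.788, 1.92 and 0.917 at day 0, so that alisertib and palbociclib libraries overlapped the untreated day-7 libraries. NIBAN1 rose 8.37-fold in bleomycin cells (log2 fold change 3.07 ± 0.79, adjusted p = 0.0119) and 3.50-fold in doxorubicin cells (1.81 ± 0.65, adjusted p = 0.0392). The doxorubicin call did not hold by DESeq2 (adjusted p = 0.195), nor without untreated day-7 replicate 3 or any 1 of the doxorubicin libraries (1.46 at the lowest, adjusted p up to 0.138). Alisertib (0.77 ± 0.75, adjusted p = 0.5) and palbociclib cells (1.34 ± 0.80, adjusted p = 0.199) did not pass.

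Untreated day-7 replicate 2 held the highest control level of NIBAN1. Without it the log2 fold changes were 4.91 in bleomycin, 3.65 in doxorubicin, 2.61 in alisertib (adjusted p = 0.013) and 3.19 in palbociclib cells (adjusted p = 0.00299), so the alisertib and palbociclib calls turn on that library. As a description with no test, the log2 fold change was 4.21 ± 0.88 in ND-646 cells and 2.95 ± 0.67 in TVB-3166 cells, and 6.04 and 4.81 without that control library.

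**Figure D1:**
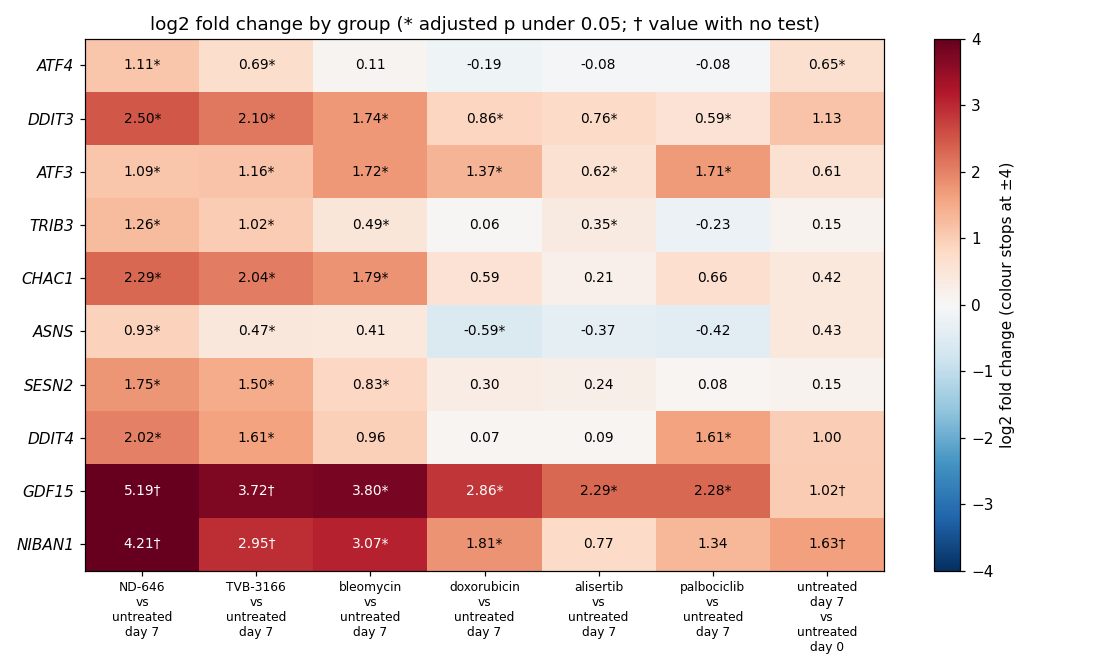
log2 fold changes of the 10 genes in each TIS group against untreated day-7 cells, and of untreated day-7 against day-0 cells. An asterisk marks an adjusted p under 0.05 and a dagger a value with no test. DDIT3 and ATF3 carry an asterisk in all 6 TIS groups, and ATF4 in ND-646 and TVB-3166 cells among the TIS groups.

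Compared per length of the exons of 1 transcript each, the members spanned a wide range of levels before treatment. In untreated day-7 cells ATF4 stood at 253 CPM per kb, TRIB3 at 118, ASNS at 93.9 and DDIT4 at 88.2. The remaining 6 were lower, from NIBAN1 at 0.541 and GDF15 at 2.64 to ATF3 at 11.8 CPM per kb. In ND-646 cells GDF15 reached 96.4 CPM per kb, with DDIT4 at 357 and ATF4 at 547.8.

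Between untreated cells at day 0 and day 7, 0.389% of all genes rose and 0.198% fell, and 23.9% had an unadjusted p under 0.05. Of the 8 tested members only ATF4 rose (1.57-fold, log2 fold change 0.65 ± 0.12, adjusted p = 0.0488), and its 3 libraries at day 7 were above all 3 at day 0. That call was lost without any 1 library other than day-0 replicate 1 (adjusted p up to 0.205). DDIT3 and ATF3 were also higher in every day-7 library. DDIT3 had a log2 fold change of 1.13 ± 0.24 that did not pass edgeR's test (adjusted p = 0.0596) and passed by DESeq2 (adjusted p = 0.000249). The median of the 8 was 0.52, against 0.01 over all genes. Changes of the TIS groups against day 0 were accordingly larger than against day 7 for ATF4, at 1.75 in ND-646, 1.33 in TVB-3166 and 0.44 to 0.74 in the other groups, and they are given with no test.

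Whether the inhibitors of acetyl-CoA carboxylase and of fatty acid synthase differ from each other was compared directly. None of the 8 tested members passed in TVB-3166 against ND-646 cells with edgeR, 1 had an unadjusted p under 0.05 (ASNS), and DESeq2 also called 0. Over all genes 0.52% rose and 0.198% fell. The log2 fold changes ran from -0.47 ± 0.20 (ASNS) to 0.06 ± 0.14 (ATF3), with 7 of the 8 below 0 and none passing. Their median was -0.33, against -0.01 over all genes, and -0.24 against 0.01 without ND-646 replicate 1. Without ND-646 replicate 1 ATF4 moved from -0.43 to -0.09, DDIT3 to -0.27, TRIB3 to 0.01 and ASNS to -0.21, and no member was called, while 6.01% of 13792 genes were higher and 5% lower. GDF15 was at 41.1 ± 3.09 CPM in TVB-3166 and 116 ± 66.3 CPM in ND-646 cells, and NIBAN1 at 27.9 ± 6.12 and 67.8 ± 17.2 CPM (SD, n = 3 each), with no overlap of libraries for either gene. These 2 are given with no test. The log2 fold change of GDF15 was -1.48, and -0.91 without ND-646 replicate 1.

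To set the lipogenesis inhibitors against the other inducers of TIS, the mean of the ND-646 and TVB-3166 groups was compared with the mean of the other 4 drug groups in 1 fit of 18 libraries. Of the 8 tested members 7 were higher and ATF3 was lower, where 26.1% of all genes were higher and 24% lower. The log2 differences were 0.99 ± 0.11 for ATF4 (adjusted p = 1.22e-06), 1.00 ± 0.11 for TRIB3 (adjusted p = 9.52e-07) and 1.33 ± 0.16 for DDIT3 (adjusted p = 2.32e-06). For ATF4 and TRIB3, all 6 libraries of the lipogenesis inhibitors were above all 12 of the other groups. CHAC1 (1.38), SESN2 (1.28), DDIT4 (1.15) and ASNS (0.97) were also higher, with overlapping libraries. ATF3 differed by -0.21 ± 0.07 (adjusted p = 0.015), and this call was lost without TVB-3166 replicate 1 (adjusted p = 0.0591) and in the fit of all 24 libraries (adjusted p = 0.111).

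The mean over 4 drugs hides differences between them, so each was also compared alone, a comparison added after the data were seen. Against bleomycin 4 of the 8 were higher and 1 lower (15.7% and 17% of all genes). ATF4 (0.81 ± 0.16, adjusted p = 0.00104), TRIB3 (0.67 ± 0.16, adjusted p = 0.0039), SESN2 (0.82 ± 0.23, adjusted p = 0.0113) and DDIT4 (0.87 ± 0.28, adjusted p = 0.0251) were higher and ATF3 lower (-0.58 ± 0.09, adjusted p = 0.000119). DDIT3 (0.57 ± 0.23, adjusted p = 0.0663), CHAC1 (0.39 ± 0.33, adjusted p = 0.38) and ASNS (0.31 ± 0.18, adjusted p = 0.192) did not pass. Against doxorubicin 7 were higher and none lower (21.4% and 22.2% of all genes), ATF3 not passing at -0.22. Against alisertib all 8 were higher (20.4% of all genes, with 19.3% lower), ATF3 by 0.53 ± 0.10 (adjusted p = 0.000273). Against palbociclib 6 were higher and ATF3 lower (20.5% and 20.3% of all genes), and DDIT4 did not pass (0.22 ± 0.27, adjusted p = 0.557). ATF4, TRIB3 and SESN2 were higher against each of the 4 drugs. For GDF15, the differences with no test were 0.68 against bleomycin, 1.63 against doxorubicin, 2.20 against alisertib and 2.20 against palbociclib. Without ND-646 replicate 1 the first was 0.39, and the counts of members called against the 4 drugs did not change.

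**Figure D2:**
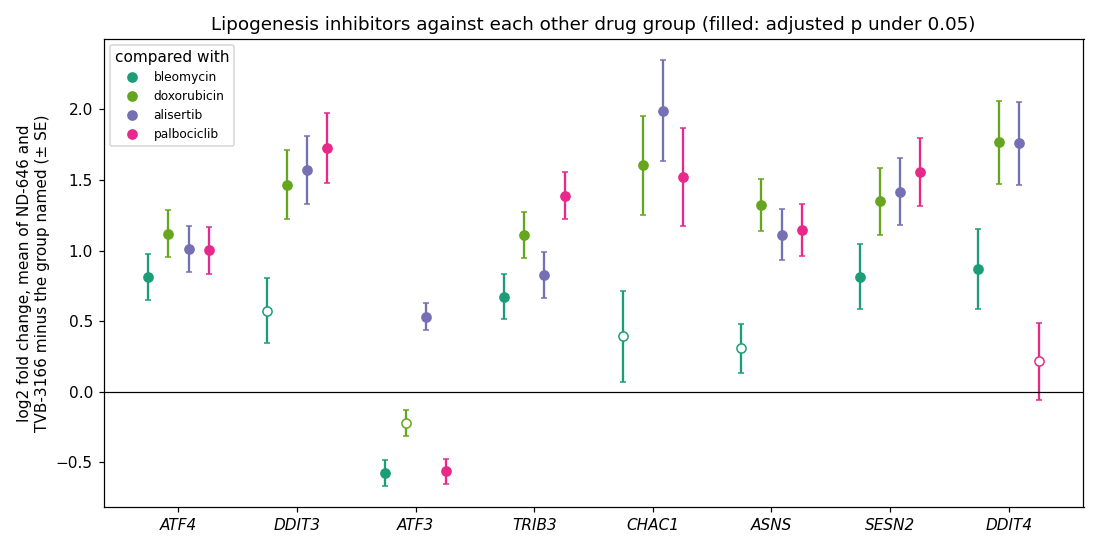
log2 fold change (± SE) of the 8 tested members between the mean of the ND-646 and TVB-3166 groups and each other TIS group. Filled points have an adjusted p under 0.05. DDIT3, CHAC1 and ASNS are open against bleomycin, and ATF3 lies below 0 except against alisertib.

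Other genes of the pathway were counted from lists. Of 30 other ATF4 targets tested, 21 rose and none fell in ND-646 cells, 17 rose and 1 fell in TVB-3166 cells, and 16 rose and 3 fell in bleomycin cells. The counts were 10 and 7 in doxorubicin, 4 and 2 in alisertib and 8 and 5 in palbociclib cells. As shares these were 70%, 56.7%, 53.3%, 33.3%, 13.3% and 26.7% rising, to be read against the shares of all genes given above. PPP1R15A encodes GADD34, a regulatory subunit of an eIF2α phosphatase. It rose by log2 2.16 ± 0.23 in ND-646, 1.54 ± 0.15 in TVB-3166 and 1.9995 ± 0.14 in bleomycin cells, and by 1.36 ± 0.14 in doxorubicin cells. SLC7A11, the cystine importer, rose by 1.98 ± 0.24 in ND-646 and 1.32 ± 0.20 in bleomycin cells, and NUPR1, a stress-induced chromatin protein, by 1.65 ± 0.18 in TVB-3166 cells. In doxorubicin cells PSAT1 (-0.55), PHGDH (-0.48) and PYCR1 (-0.52), enzymes of serine and proline synthesis, fell, as did ASNS. Against the other 4 TIS groups, 22 of the 30 were higher in the lipogenesis inhibitor groups and 1 was lower (73.3% and 3.33%, against 26.1% and 24% of all genes). The counts without ND-646 replicate 1 were 22 and 1 in ND-646 cells and 21 and 1 for the lipogenesis inhibitors. Also without it, 8 were higher and 3 lower against bleomycin alone (26.7% and 10%, against 19.2% and 20.4% of all genes). Against doxorubicin, alisertib and palbociclib alone 70%, 80% and 70% were higher, where 23.3%, 22.8% and 22.6% of all genes were. In TVB-3166 against ND-646 cells 1 of the 30 was lower and none higher, and 12 were lower and 1 higher without ND-646 replicate 1 (40% and 3.33%, against 5% and 6.01% of all genes).

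The aminoacyl-tRNA synthetases, which load amino acids onto tRNAs and are known ATF4 targets in part, gave 5 of 12 higher in each of ND-646, TVB-3166 and bleomycin cells and none higher in doxorubicin, alisertib or palbociclib cells. That is 41.7% in each of the first 3 groups, where 17.2%, 25.4% and 22.4% of all genes rose, and none in the others, where 21.9%, 9.55% and 22% did. The difference between these groups was not tested. In ND-646 cells 9 of 12 rose without replicate 1 of that group (75%, against 26.7% of all genes). LARS1 fell in TVB-3166 cells (-0.26) and YARS1 in doxorubicin cells (-0.39). AARS1 rose by log2 1.06 ± 0.16 in ND-646, 0.78 ± 0.10 in TVB-3166 and 0.79 ± 0.18 in bleomycin cells. SARS1 rose by 1.12 ± 0.20 in ND-646 cells and by 0.51 ± 0.09 in TVB-3166 cells. Against the other TIS groups 10 of 12 were higher with the lipogenesis inhibitors and 1 was lower (83.3% and 8.33%, against 26.1% and 24% of all genes). This did not hold for bleomycin alone. There, without ND-646 replicate 1, 1 was higher and 2 lower (8.33% and 16.7%, against 19.2% and 20.4% of all genes). Against doxorubicin, alisertib and palbociclib alone 10, 9 and 8 were higher in such fits, where 23.3%, 22.8% and 22.6% of all genes were.

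Genes that control eIF2α were counted next. Of 19 genes 3 rose and 2 fell in ND-646 cells, 4 and 6 in TVB-3166, 6 and 4 in bleomycin, 4 and 3 in doxorubicin, 2 and 1 in alisertib and 2 and 4 in palbociclib cells. The shares that rose were 15.8%, 21.1%, 31.6%, 21.1%, 10.5% and 10.5% in that order, against 17.2%, 25.4%, 22.4%, 21.9%, 9.55% and 22% of all genes, so that they were near or below the background except in bleomycin cells. The ND-646 counts without ND-646 replicate 1 were 4 and 7, where 28.3% of all genes fell. The 4 kinases are given one by one. EIF2AK3 (PERK, the kinase of the endoplasmic reticulum) was at 53.04 ± 7.70 CPM in untreated day-7 cells and 127 ± 9.03 in ND-646, 99.0 ± 6.75 in TVB-3166, 75.2 ± 5.44 in doxorubicin and 65.3 ± 1.98 CPM in bleomycin cells (SD, n = 3), and rose in these 4 groups, by log2 1.26, 0.91, 0.53 and 0.32. EIF2AK1 (HRI, which senses haem and mitochondrial stress) rose by 0.57 in both ND-646 and TVB-3166 and by 0.38 in bleomycin cells. EIF2AK2 (PKR, which senses double-stranded RNA) rose by 0.93 in bleomycin, 0.63 in doxorubicin and 0.31 in alisertib cells, and did not pass with either lipogenesis inhibitor (0.01 for ND-646 and 0.19 for TVB-3166). EIF2AK4 (GCN2, which senses uncharged tRNA) fell by 0.32 on the log2 scale in TVB-3166 cells and was -0.29 in ND-646 cells (adjusted p = 0.189). Against the other 4 TIS groups EIF2AK3 was higher with the lipogenesis inhibitors (0.80 ± 0.06, adjusted p = 4.95e-08), with no overlap of libraries, and EIF2AK2 was lower (-0.40 ± 0.08, adjusted p = 0.000598). Without ND-646 replicate 1, EIF2AK2 was lower against bleomycin (-0.72) and doxorubicin (-0.42) alone. In such fits it did not pass against alisertib (-0.10, adjusted p = 0.257) or palbociclib (0.01, adjusted p = 0.911). Kinase activity was not measured.

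The unfolded protein response of the endoplasmic reticulum shares PERK with this pathway. Of 22 genes of its sensors, chaperones and degradation factors 6 rose and 1 fell in ND-646, 7 and 6 in TVB-3166, 5 and 7 in bleomycin, 4 and 4 in doxorubicin, 3 and 2 in alisertib and 4 and 5 in palbociclib cells. The shares that rose were 27.3%, 31.8%, 22.7%, 18.2%, 13.6% and 18.2%, against 17.2%, 25.4%, 22.4%, 21.9%, 9.55% and 22% of all genes. Without ND-646 replicate 1, 6 rose and 8 fell in ND-646 cells (27.3% and 36.4%, against 26.7% and 28.3% of all genes). ERN1, the sensor IRE1α, rose in all 6 groups, by log2 2.17 ± 0.21 in ND-646, 1.80 ± 0.13 in TVB-3166 and 2.09 ± 0.28 in bleomycin cells and by 0.58 to 1.09 in the others. CRELD2, a secreted chaperone, fell by log2 0.78 in ND-646, 0.67 in TVB-3166 and 1.34 in bleomycin cells. Against the other TIS groups 11 of the 22 were higher with the lipogenesis inhibitors and none lower (50% against 26.1% of all genes), but 8 were higher and 4 lower without ND-646 replicate 1 (36.4% and 18.2%, against 25.2% and 25.6% of all genes).

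Because GDF15 is also a target of p53, known p53 targets were counted in these p53-mutant cells. Of 19 genes 5 rose and 2 fell in ND-646, 6 and 5 in TVB-3166, 4 and 3 in bleomycin, 5 and 2 in doxorubicin, 0 and 2 in alisertib and 3 and 4 in palbociclib cells. The shares that rose were 26.3%, 31.6%, 21.1%, 26.3%, 0% and 15.8%, against 17.2%, 25.4%, 22.4%, 21.9%, 9.55% and 22% of all genes. With ND-646 replicate 1 left out, 5 rose and 5 fell in ND-646 cells. CDKN1A (p21) rose by log2 2.22 ± 0.36 in ND-646, 1.79 ± 0.16 in TVB-3166, 1.57 ± 0.17 in bleomycin, 0.72 ± 0.15 in doxorubicin and 1.13 ± 0.15 in palbociclib cells. BBC3 (PUMA), which is also induced by ATF4 and CHOP, rose by 2.30 ± 0.24, 1.97 ± 0.17 and 1.12 ± 0.20 in ND-646, TVB-3166 and bleomycin cells. FDXR fell in 5 groups, by log2 fold changes from -0.48 in alisertib to -0.89 in palbociclib cells. In ND-646 cells it was -0.40 (adjusted p = 0.136), and -0.62 without ND-646 replicate 1 (adjusted p = 0.00188).

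**Figure D3:**
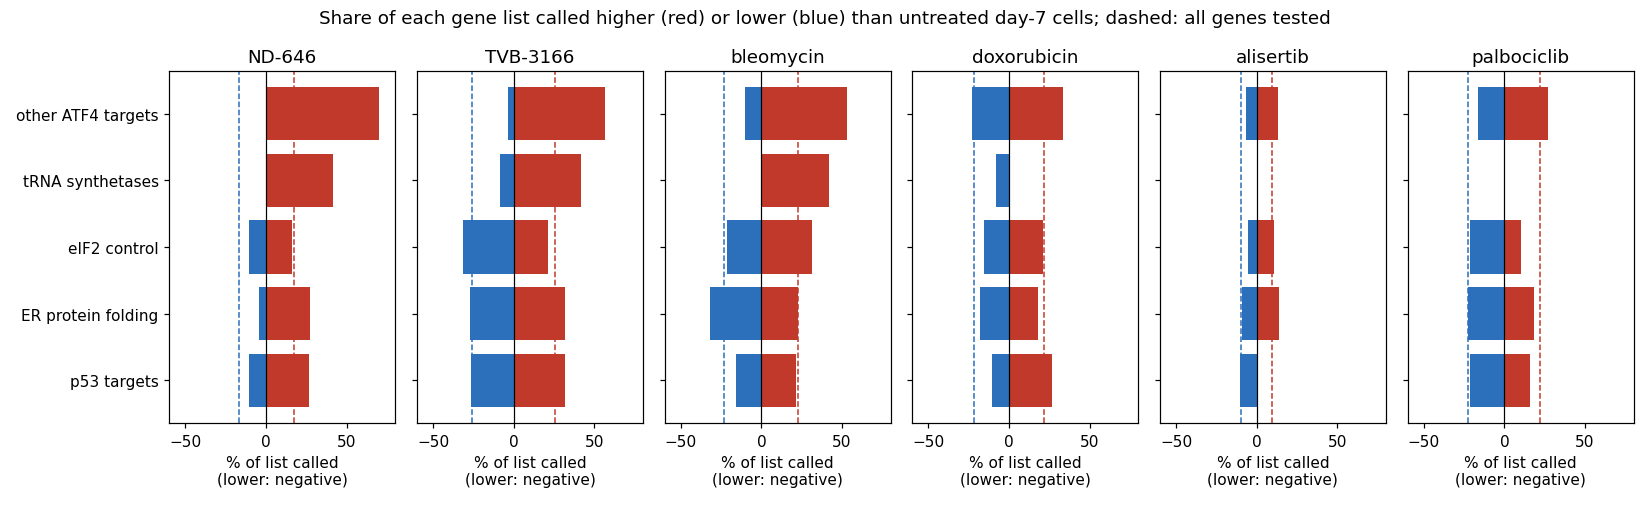
Share of 5 gene lists called higher (red) or lower (blue) than untreated day-7 cells in each TIS group, in percent of the genes tested, with dashed lines at the shares of all genes. Of the other ATF4 targets 70% were higher in ND-646 cells, where 17.2% of all genes were.

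Genes of the same families as the members were counted too. Of 11 such genes 3 rose and 3 fell with either lipogenesis inhibitor, 4 and 3 in bleomycin, 4 and 2 in doxorubicin, 1 and 0 in alisertib and 6 and 2 in palbociclib cells. The shares that rose were 27.3%, 27.3%, 36.4%, 36.4%, 9.09% and 54.5%, against the shares of all genes given above. CHAC2, the constitutive relative of CHAC1, fell by log2 1.36 in ND-646, 1.47 in TVB-3166 and 1.38 in bleomycin cells, while CHAC1 rose in each. SESN3 fell by 1.96, 0.84 and 0.72 in the same groups, while SESN2 rose. DDIT4L rose in bleomycin (0.78), doxorubicin (1.47), alisertib (0.77) and palbociclib cells (1.53). In the last of these groups DDIT4 also rose. Of the GDF15 partners, the receptor GFRAL and its co-receptor RET were not analysed here. PCSK6 and FURIN, proprotein convertases, rose in TVB-3166 cells by 0.86 and 0.29. In ND-646 cells they did not pass, but both did without ND-646 replicate 1 (PCSK6 0.85, adjusted p = 0.0136, and FURIN 0.37, adjusted p = 0.0147).

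Across the 24 libraries the members moved together to different degrees. Pearson's r of log2 CPM was positive for all 45 pairs of members, over 0.5 for 41, with a median of 0.79. The libraries share their groups and their scaling, so these values are descriptions. GDF15 and NIBAN1 were also chosen for their rise in some of these libraries, so r for pairs that hold them is not independent of that choice. DDIT3 and GDF15 had an r of 0.955 and GDF15 and NIBAN1 of 0.938, while ATF3 had the lowest values, down to 0.187 with ASNS. Within groups, after the mean of each group was subtracted, r was 0.835 for ATF4 and GDF15, 0.782 for ATF4 and TRIB3 and 0.702 for ATF4 and ASNS, all of which were high in ND-646 replicate 1. For ATF4 and SESN2 it was -0.02, although it was 0.937 over the 8 group means. CHAC1 and SESN2 (0.857) and DDIT3 and DDIT4 (0.826) were close within groups too.

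The genes whose log2 CPM was most like that of GDF15 over the 24 libraries were PRKCH (r = 0.969), DLGAP1-AS1 (0.965), TTC39B (0.961), LCN2 (0.957) and SQSTM1 (0.957). The strand setting of the counting is not given in the sources used here, so reads of the antisense gene DLGAP1-AS1 and its partner may not be told apart. Those most like the mean standardised profile of the other 8 members were KLHL2 (0.984), ADM2 (0.977), PRSS8 (0.971), CEBPG (0.969) and FAM149B1 (0.966). CEBPG, a bZIP partner of ATF4, is on the list of its targets.

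The members also shared a pattern between replicates. Replicate 2 was the highest of the 3 libraries in 59 of the 80 combinations of member and group (73.8%), against 32.9% over all genes and groups. It was the highest for NIBAN1 in 8 of 8 groups and for CHAC1, SESN2 and DDIT4 in 7 of 8 each. By group, replicate 2 was highest for 10 of the 10 members in alisertib, 9 in bleomycin, palbociclib and untreated day-7 cells, 8 in doxorubicin, 6 in TVB-3166, 5 in untreated day-0 and 3 in ND-646 cells. No label says what a replicate number marks, and counts of calls with the number as a block are given among the processing alternatives.

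**Figure D4:**
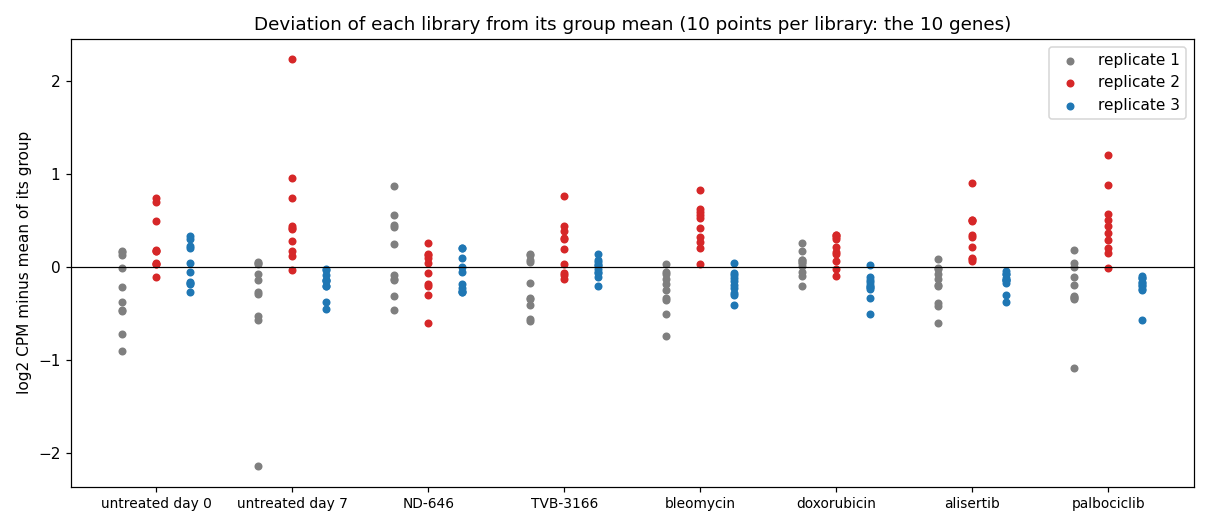
Difference of each library from the mean of its group (log2 CPM), with 10 points per library for the 10 genes. Replicate 2 (red) lies above 0 for all 10 genes in bleomycin and alisertib cells, and the farthest points are those of NIBAN1 in untreated day-7 cells.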

How the data were processed

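The 24 libraries come from SKBR3 cells. According to the paper's methods and the labels, HISAT2 (alignment, GRCh37), StringTie (assembly) and DESeq2 (group comparisons) were used. The values the authors deposited are raw counts, in whole numbers for each gene. The version of DESeq2, the counter and its strand setting are not given in the sources used here, and the labels name an mRNA kit where the methods name a total RNA kit. The lowest count in the table is 1.

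The members and gene lists were chosen with earlier results of these data known. The main test was edgeR 4.0.16 (R 4.3.3) with filterByExpr, TMM factors, glmQLFit and glmQLFTest, 2-sided, on the groups compared only, with Benjamini-Hochberg adjustment over all genes tested. The code was tested on simulated data. Untreated day-7 cells were the reference because day 0 was used to choose GDF15 and NIBAN1. SE is the absolute log2 fold change divided by the square root of F. Log2 CPM used a prior count of 2. Total counts of 29405121 to 44316330 leave little counting error for most genes. An exact permutation test of 3 against 3 cannot go below p = 0.1. Groups and replicate numbers came from the labels. Deviations from the group means correlated between equal replicate numbers of TVB-3166 and ND-646 (r = 0.371, 0.204 and 0.284). The values given for this comparison are nevertheless from the fit without a replicate block. With the block the count of members called stayed at 0. Over all pairs of the 6 drug groups, 36 of 45 such correlations were over 0.1. The main fit of the lipogenesis inhibitors against the other TIS groups also held no block. Every comparison with an untreated group had a correlation under 0.1 for 1 or more of the 3 numbers.

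Alternatives were DESeq2 1.42.0, RLE factors, other filters on low counts, 1 fit of all 24 libraries, a replicate block, leaving out each library, a fold of 2 with raw p under 0.05, and day 0 as the reference. Fits of the lists and against each other drug without ND-646 replicate 1 were added after seeing the data. The rule for named genes took the 10 members, the 4 eIF2α kinases, up to 3 genes per list and direction with the largest change among those called in the comparison described, and the 5 genes most like GDF15 and the 5 most like the mean of the other 8. CD68, VWF, COL1A1, ACTA2, ERBB2, the reference genes and the GDF15 receptor genes are named outside that rule as checks. Promoters are RefSeq windows on GRCh38.p14, and gene positions are from GENCODE on GRCh37.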

Additional observations from a re-analysis of the deposited data

How the results depend on the processing

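The counts of members called in ND-646 (7 to 8), TVB-3166 (6 to 8) and bleomycin cells (5 to 9) stayed within 1.5 times of 8, 8 and 7 under every alternative run, and the count between ND-646 and TVB-3166 cells stayed at 0. A fold of 2 with raw p under 0.05 left 3 in doxorubicin, 1 in alisertib and 4 for the lipogenesis inhibitors against the other TIS groups. By adjusted p under 0.05, 5 of the 8 were called for the lipogenesis inhibitors against bleomycin alone. The fit of all 24 libraries left 2 in alisertib. Between untreated day-7 and day-0 cells the count was 2 by DESeq2, 2 in the fit of all 24 libraries and 0 without a filter on low counts. Leaving out 1 library gave 4 to 8 in doxorubicin, 2 to 5 in alisertib and 0 to 1 between the untreated groups. With a replicate block the counts were 9 in bleomycin, 7 in doxorubicin, 6 in alisertib, 8 in palbociclib and 4 between the untreated groups. No label says what a replicate number marks. In comparisons with an untreated group, deviations from the group means correlated between equal numbers at r of 0.02 to 0.23. The added calls include NIBAN1 in alisertib (1.27, adjusted p = 0.0164) and palbociclib cells (1.75, adjusted p = 1.31e-05), and, as lower, ASNS in alisertib (-0.36, adjusted p = 0.00143) and palbociclib cells (-0.40, adjusted p = 0.000264) and TRIB3 in palbociclib cells (-0.23, adjusted p = 0.0154). The cause of these moves was not tested.

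Signs turned for the following log2 fold changes of members, of which only that of ATF3 against the other TIS groups was called. With 1 library left out, ATF4 ranged from -0.00256 to 0.1941 in bleomycin, from -0.1539 to 0.00739 in alisertib and from -0.1471 to 0.00702 in palbociclib cells. TRIB3 ranged from -0.02562 to 0.1482 and DDIT4 from -0.1682 to 0.5197 in doxorubicin cells. In alisertib cells CHAC1 ranged from -0.09398 to 0.4189 and DDIT4 from -0.2001 to 0.544. SESN2 ranged from -0.197 to 0.2458 in palbociclib cells. Between the untreated groups SESN2 ranged from -0.01305 to 0.2455 and NIBAN1 from -0.2066 (without day-7 replicate 2) to 2.166. Between TVB-3166 and ND-646 cells ATF3 ranged from -0.04086 to 0.1414 and TRIB3 from -0.3619 to 0.008107. Against alisertib alone ATF3 was 0.5317 higher with the lipogenesis inhibitors, where it was lower against the mean of the 4 groups. With day 0 as the reference ATF4 was 0.4417 in doxorubicin, 0.5504 in alisertib and 0.5506 in palbociclib cells, and ASNS was 0.03148 in alisertib cells.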
